A study of Homo sapiens with 10 samples.

Results

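The genes described here encode the 5 subunits of the transcription factor NF-kB (NFKB1, NFKB2, REL, RELA and RELB) and 5 feedback proteins. The feedback genes (NFKBIA, NFKBIE, NFKBIZ, TNFAIP3 and ZC3H12A) are called inhibitors below. That name is loose for NFKBIZ, which modulates a subset of targets, and for ZC3H12A, which acts on mRNAs. All 10 genes were listed by symbol, with earlier results of these data known. Each was found among the 23243 gene symbols that the 4 deposited tables share. Expression was measured by RNA-seq in 3 human cell lines: K562, from an erythroleukaemia, SK-N-SH, from a neuroblastoma, and U-2 OS, from an osteosarcoma. The cells carried PcTF, a synthetic protein that joins the histone-binding chromodomain of the polycomb protein CBX8 to the red fluorescent protein mCherry and the activator VP64. The question was how transcription in each line responds when such a fusion is present.

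In each line, 1 library came from cells transfected with 2 µg of PcTF plasmid and 1 from mock-transfected cells that received the transfection vehicle alone. K562 cells grew for up to 48 h, and those of the other lines for up to 96 h. Only some of the cells that received plasmid were RFP-positive, fewer at later times, and no sorting was described. Mock cells received no plasmid, so an effect of plasmid uptake and an effect of PcTF cannot be told apart here. A further 2 libraries came from U2OS-PcTF cells and 1 from U2OS-dTF cells, isogenic Flp-In T-REx lines made from U-2 OS that carry the transgene under a TetR-repressed promoter. These were kept for 96 h in 1 µg/mL doxycycline, and dTF is the fusion without the histone-binding domain. For the stable PcTF cells the deposited column is a mean over 3 libraries, 1 of them the PcTF-transfected U-2 OS library. The mean of the 2 stable libraries was derived from it, and no SD can be given. The paper's methods state more replicates of the stable lines than the labels do.

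NF-kB proteins work as pairs of subunits. NFKB1 and NFKB2 encode precursors that are cut to p50 and p52, which bind DNA but carry no activation domain of their own, while RELA (p65), REL (c-Rel) and RELB do carry one. In resting cells IkB proteins such as those of NFKBIA and NFKBIE hold the pairs in the cytoplasm, and signals from cytokine or Toll-like receptors lead to their phosphorylation and degradation. NF-kB then activates target genes in the nucleus, among them genes of its own subunits and inhibitors, so the pathway contains feedback loops. TNFAIP3 (A20) edits ubiquitin chains on upstream signalling proteins, ZC3H12A (Regnase-1) is an RNase that cleaves inflammatory mRNAs, and NFKBIZ (IkB-zeta) is an atypical nuclear IkB that modulates a subset of targets.

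The windows of promoter sequence that hold an NF-kB consensus site are shown because several members are known as targets of NF-kB themselves. The 250 bases before the RefSeq start site were searched on both strands for the 10-base NF-kB consensus, which opens with GGG and closes with CC. Of the 8 members with a RefSeq window, 5 held a match (62.5%), and NFKB2, RELA and ZC3H12A held none. RELB and NFKBIE were not searched. The NFKB2 window (chr10:104153617-104153866) ended before the deposited NFKB2 start at 104154229. The RELA window (chr11:65431329-65431578) likewise lay upstream of the deposited RELA 5′ end at 65430443. For both genes the bases directly before the deposited start were not searched. The REL and TNFAIP3 windows also ended short of the deposited start. Over all RefSeq promoter windows of this length, 2614 of 27305 (9.57%) held a match. Each 30-base window below is written 5′ to 3′ on the strand of the gene, with the matching bases in capitals. It was placed on GRCh37 by exact match.
NFKB1, chr4:103422457-103422486 (+): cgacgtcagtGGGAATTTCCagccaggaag
REL, chr2:61108653-61108682 (+): gtcagccgcGGGAAATTCCCctcccgccag
NFKBIA, chr14:35874017-35874046 (-): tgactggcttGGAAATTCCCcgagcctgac
NFKBIZ, chr3:101546601-101546630 (+): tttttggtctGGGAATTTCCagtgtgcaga
TNFAIP3, chr6:138188325-138188354 (+): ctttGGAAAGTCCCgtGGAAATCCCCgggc
The match lay 49 to 40 bases before the start of NFKB1 and 81 to 72 bases before that of NFKBIA. In REL, overlapping matches on both strands covered bases 47 to 37 before the start. TNFAIP3 held 2 matches on the opposite strand, the farther of which began 67 bases before the start. The NFKBIZ match began 223 bases before its RefSeq start. It lay inside the deposited NFKBIZ interval, which begins farther upstream, at 101498029, and overlaps that of FAM55C. A match describes the letters and does not show that NF-kB bound there.

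Levels are given as FPKM (fragments per kilobase of transcript scaled to the mapped reads of the library), so they can be set side by side between genes of different length. With 1 library per column no difference has a replicate check, and no test was made. A gene was counted as 2-fold higher or lower where log2 of the FPKM ratio, after adding 0.1 FPKM to both values, passed 2-fold and the higher library had 1 FPKM or more. The log2 ratios below are on that scale, and folds are ratios of the deposited FPKM. Approximate reads were worked out from FPKM, depth and transcript length, and the 95% interval on the log2 read ratio covers counting error only. Bulk RNA cannot tell fewer cells with a transcript from less of it per cell.

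The 7 single libraries had between 4.24e+06 and 7.35e+06 reads as estimated from the FPKM steps, and between 13246 and 16089 genes above 0. CBX8, whose 5′ part is in PcTF, had 14.3 FPKM in PcTF-transfected and 1.59 FPKM in mock K562, 8.85 against 0.287 FPKM in SK-N-SH, and 6.43 against 0.610 FPKM in U-2 OS. All 6 SK-N-SH markers and all 6 K562 markers reached 1 FPKM in the libraries of their own line. Of the 6 U-2 OS markers, COL1A2 and TWIST1 were at 0 in every U-2 OS column, and the summed level of the list was 66.4 FPKM in the PcTF library against 560 FPKM in mock. The part of that difference in the U-2 OS results was not tested. In mock SK-N-SH 5 of these 6 markers reached 1 FPKM and the list summed to 1525 FPKM, so it does not set U-2 OS apart from SK-N-SH. White blood cell markers reached 1 FPKM for 1 of 8 genes in both transfected U-2 OS libraries (ITGAM) and for 0 of 8 in SK-N-SH. The summed level of the K562 markers was 7514 FPKM in the PcTF library against 1698 FPKM in mock. The K562 libraries differed widely beyond PcTF, with GAPDH at 2894 FPKM in the PcTF library against 428 FPKM in mock. It is not known if this is the K562 table from which the study drew its plots, since CBX8 and GAPDH appear to lie elsewhere in them, and every K562 value carries that doubt. The U2OS-dTF library stood apart from mock-transfected U-2 OS cells, since 28.1% of 12660 genes were 2-fold higher and 32.0% 2-fold lower in it. Results that rest on it are given against mock-transfected cells too.

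In mock-transfected cells RELA was the most abundant subunit transcript in K562, and NFKB1 in both other lines. The 5 subunits summed to 52.0 FPKM in U-2 OS, 23.3 FPKM in SK-N-SH and 29.96 FPKM in K562. NFKB1 held 40.2% of that sum in K562, 45.5% in SK-N-SH and 42.5% in U-2 OS. RELA held 53.1%, 32.6% and 16.0% in the same order. REL held 4.18% in K562, 18.3% in SK-N-SH and 25.5% in U-2 OS. NFKB2 held 13.9% in U-2 OS, and 2.03% and 1.76% in the other lines, while RELB was the lowest subunit in all 3 mock libraries. These shares compare tables that were made separately, and no spread between libraries is known. In hg19, as deposited, NFKB1 lies at chr4:103422486-103538459 (+), NFKB2 at chr10:104154229-104162281 (+), REL at chr2:61108752-61150178 (+), RELA at chr11:65421067-65430443 (-) and RELB at chr19:45504707-45541456 (+).

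**Figure D1:**
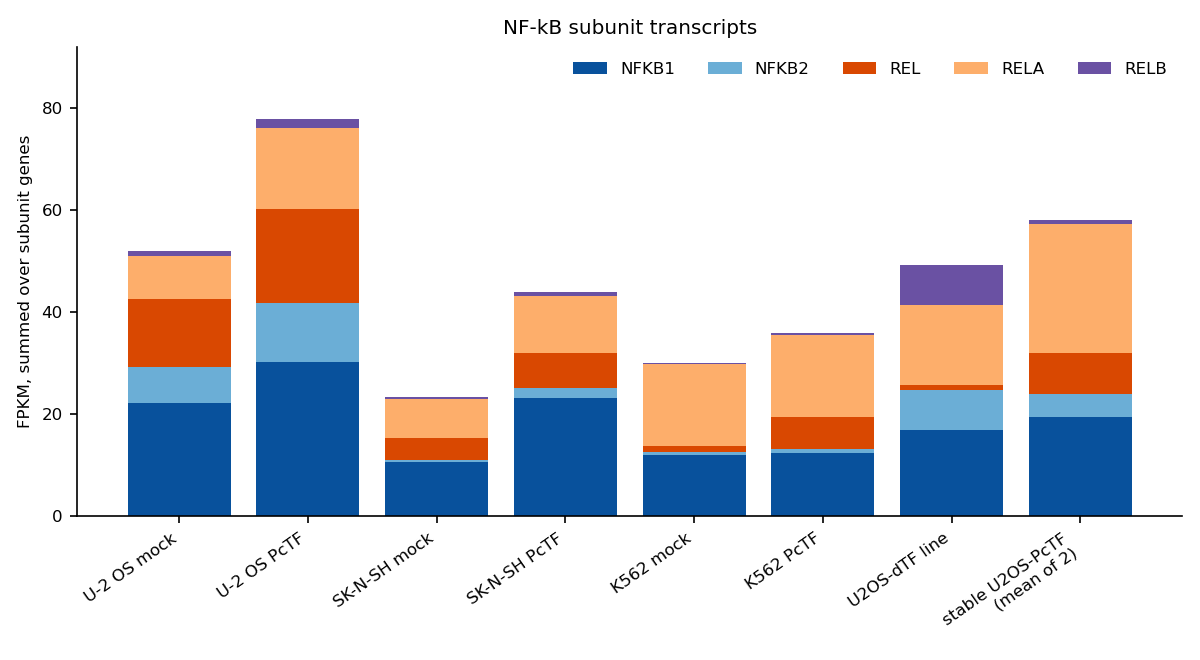
Stacked FPKM of the 5 NF-kB subunit genes in the 7 single libraries and the derived mean of the 2 stable U2OS-PcTF libraries. The sum was higher in the PcTF library than in the mock library of each line. In K562 it was 29.96 FPKM in mock and 35.9 FPKM with PcTF, where the median gene had a log2 ratio of 0.28. NFKB1 and RELA made up most of the sum in every column, and the RELB block was visible mainly in the U2OS-dTF line.

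Among the inhibitors, NFKBIZ was the most abundant in mock U-2 OS (22.5 FPKM), where it was also the highest of all 10 genes. NFKBIA, the gene of the classical inhibitor IkB-alpha, was at 12.0 FPKM there, 8.04 FPKM in mock SK-N-SH and 17.1 FPKM in mock K562. TNFAIP3 was at 5.28 FPKM in mock U-2 OS and 6.57 FPKM in mock K562, and it was listed at 0 in mock SK-N-SH. ZC3H12A was under 1 FPKM in all 3 mock libraries. NFKBIE was at 3.79 FPKM in U-2 OS, 0.890 FPKM in SK-N-SH and 3.68 FPKM in K562. Their hg19 loci are chr14:35870716-35873960 (-) for NFKBIA, chr6:44225903-44233525 (-) for NFKBIE, chr3:101498029-101579869 (+) for NFKBIZ, chr6:138188581-138204449 (+) for TNFAIP3 and chr1:37940119-37949978 (+) for ZC3H12A.

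**Figure D2:**
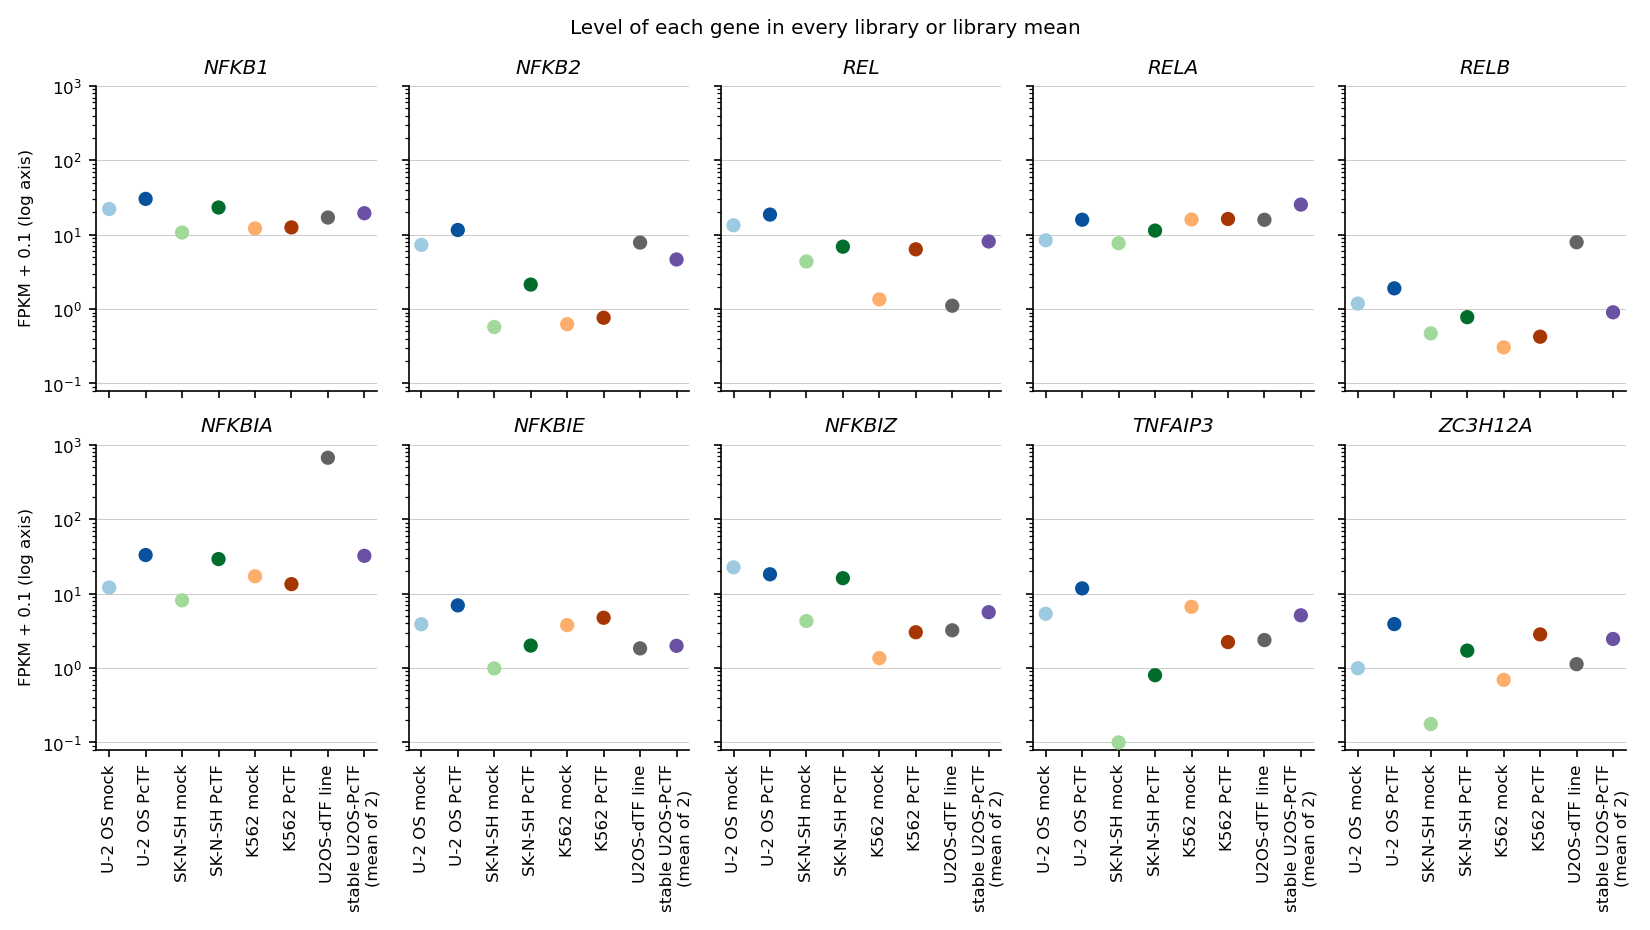
FPKM plus 0.1 (log axis) of each of the 10 genes in the 7 single libraries and the derived mean of the 2 stable U2OS-PcTF libraries, 1 point per column. In SK-N-SH and in U-2 OS the PcTF point lay above the mock point for all genes but NFKBIZ in U-2 OS, and NFKBIA in the U2OS-dTF line (673 FPKM) lay far above every other point.

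In PcTF-transfected U-2 OS cells 9 of the 10 genes were above their mock level and 3 were 2-fold higher (NFKBIA, TNFAIP3 and ZC3H12A), against 12.0% of 12411 genes tested. None was 2-fold lower, against 5.59% of genes. The 10 genes had a median log2 ratio of 0.76, beside 0.08 for all genes tested. All 10 passed the 1 FPKM filter. The 3 genes past 2-fold were all inhibitors, and no subunit passed 2-fold.

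The subunits in U-2 OS differed by less than 2-fold each. RELA was at 8.32 FPKM in mock cells and at 15.8 FPKM with PcTF, a log2 ratio of 0.92 (83 and 139 reads, interval 0.53 to 1.34). NFKB2 was at 7.21 and 11.5 FPKM (0.66, interval 0.31 to 1.06). NFKB1 was at 22.1 and 30.3 FPKM (0.45, interval 0.26 to 0.64), and it was the subunit with the most reads (422 and 507). REL was at 13.3 and 18.6 FPKM (0.48, interval 0.15 to 0.81). For RELB, at 1.09 and 1.80 FPKM, the 11 and 16 reads gave an interval of -0.47 to 1.98, so a difference was not detectable at this depth. The summed subunit level was 52.0 FPKM in mock and 77.9 FPKM in PcTF cells, with the share of RELA at 16.0% and 20.3%.

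The U-2 OS inhibitors spread more widely than the subunits. ZC3H12A was at 0.896 FPKM in mock cells and at 3.81 FPKM with PcTF, 4.25-fold higher (log2 ratio 1.97), on 11 and 40 reads (interval 1.06 to 3.16). NFKBIA was at 12.0 and 33.0 FPKM, 2.75-fold higher (1.45, interval 1.07 to 1.85). TNFAIP3 was at 5.28 and 11.7 FPKM, 2.22-fold higher (1.13, interval 0.807 to 1.497). NFKBIE, the second IkB gene of the set, was at 3.79 and 6.87 FPKM (0.84, interval 0.27 to 1.42). NFKBIZ alone lay below its mock level, at 22.5 FPKM in mock cells and at 18.2 FPKM with PcTF (-0.31, interval -0.54 to -0.09). The deposited NFKBIZ interval overlaps that of FAM55C, which was at 6.71 and 6.06 FPKM, and how the reads between them were divided was not tested.

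In SK-N-SH all 10 genes lay above their mock level in PcTF cells. The count of 2-fold higher members was 6 (NFKB1, NFKB2, NFKBIA, NFKBIE, NFKBIZ and ZC3H12A), against 5.79% of 11954 genes, and 0 were 2-fold lower, against 2.69%. The median log2 ratio over all 10 genes was 1.48, beside 0.10 for all genes tested. RELB and TNFAIP3 stayed under 1 FPKM in both libraries and so did not pass the filter.

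SK-N-SH had the largest differences of the 3 lines for NFKB1 and NFKB2. NFKB1 was at 10.6 FPKM in mock cells and at 23.1 FPKM with PcTF, 2.18-fold higher (log2 ratio 1.12), on 216 and 579 reads (interval 0.89 to 1.35). NFKB2 was at 0.474 and 2.04 FPKM, a log2 ratio of 1.90, but on 7 and 39 reads (interval 1.00 to 3.58). RELA was at 7.60 and 11.3 FPKM (0.56, interval 0.16 to 0.97). REL was at 4.27 and 6.81 FPKM (0.66, interval 0.17 to 1.22). RELB had 4 and 9 reads, and its difference was not detectable at this depth (interval -0.97 to 3.02). The subunit sum was 23.3 FPKM in mock and 43.9 FPKM in PcTF cells, and NFKB1 made up 52.7% of the latter.

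Among the SK-N-SH inhibitors, NFKBIA and NFKBIZ differed on the most reads. NFKBIA was at 8.04 and 29.1 FPKM, 3.62-fold higher (log2 ratio 1.84), on 56 and 250 reads (interval 1.44 to 2.30). NFKBIZ was at 4.20 and 16.1 FPKM, 3.83-fold higher (1.91), on 77 and 365 reads (interval 1.59 to 2.32). In U-2 OS, where NFKBIZ was already the highest of the 10 genes in mock cells, it had been slightly lower. NFKBIE was at 0.890 and 1.91 FPKM (1.02, interval 0.055 to 2.25), and centred on the median gene it was 0.93 and no longer 2-fold higher. ZC3H12A was at 0.0766 and 1.62 FPKM, on 1 and 25 reads, and the single mock read leaves the log2 read ratio anywhere from 1.73 to 9.70. TNFAIP3 was listed at 0 in mock cells and at 0.703 FPKM (19 reads) in PcTF cells, and no fold is given.

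In K562 the members lay on both sides of the background. The PcTF library had 3 members that were 2-fold higher (REL, NFKBIZ and ZC3H12A), against 28.6% of 11553 genes, and 1 that was 2-fold lower (TNFAIP3), against 11.7%. The median log2 ratio was 0.31 over all 10 genes, beside 0.37 for all genes tested, so the members as a group did not stand above the other genes of these libraries. The median of genes with 1 FPKM or more in both libraries was itself at 0.28, and values centred on it are given below as centred. The median of the 8 members that passed was 0.19 as deposited and -0.10 centred. NFKB2 and RELB stayed under 1 FPKM in both libraries.

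Of the K562 subunits, REL was at 1.25 FPKM in mock cells and at 6.27 FPKM with PcTF, 5.01-fold higher. Its log2 ratio was 2.24 (centred 1.95), on 13 and 102 reads (interval 1.47 to 3.26). The share of REL in the subunit sum was 4.18% in mock and 17.5% in PcTF cells. NFKB1 was at 12.1 and 12.4 FPKM (0.05, centred -0.24, interval -0.20 to 0.29). RELA was at 15.9 and 16.2 FPKM (0.02, centred -0.26, interval -0.27 to 0.33). Both intervals included 0. NFKB2 had 7 and 15 reads (interval -0.95 to 1.97), and RELB, at 0.206 and 0.326 FPKM, had fewer still, so that neither difference was detectable at this depth.

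K562 inhibitors went in opposite directions. TNFAIP3 was at 6.57 FPKM in mock cells and at 2.14 FPKM with PcTF, a log2 ratio of -1.58 (centred -1.86), on 129 and 66 reads (interval -2.08 to -1.19). ZC3H12A was at 0.595 and 2.74 FPKM (2.03, centred 1.75), on 7 and 49 reads (interval 0.99 to 3.53). NFKBIZ was at 1.26 and 2.93 FPKM (1.16, centred 0.87), so that it was no longer 2-fold higher once centred. NFKBIA was at 17.1 and 13.4 FPKM (-0.35, centred -0.64, interval -0.73 to 0.03). NFKBIE was at 3.68 and 4.65 FPKM (0.33, centred 0.04). K562 is the line whose cells were collected earlier, and line and time cannot be told apart.

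**Figure D3:**
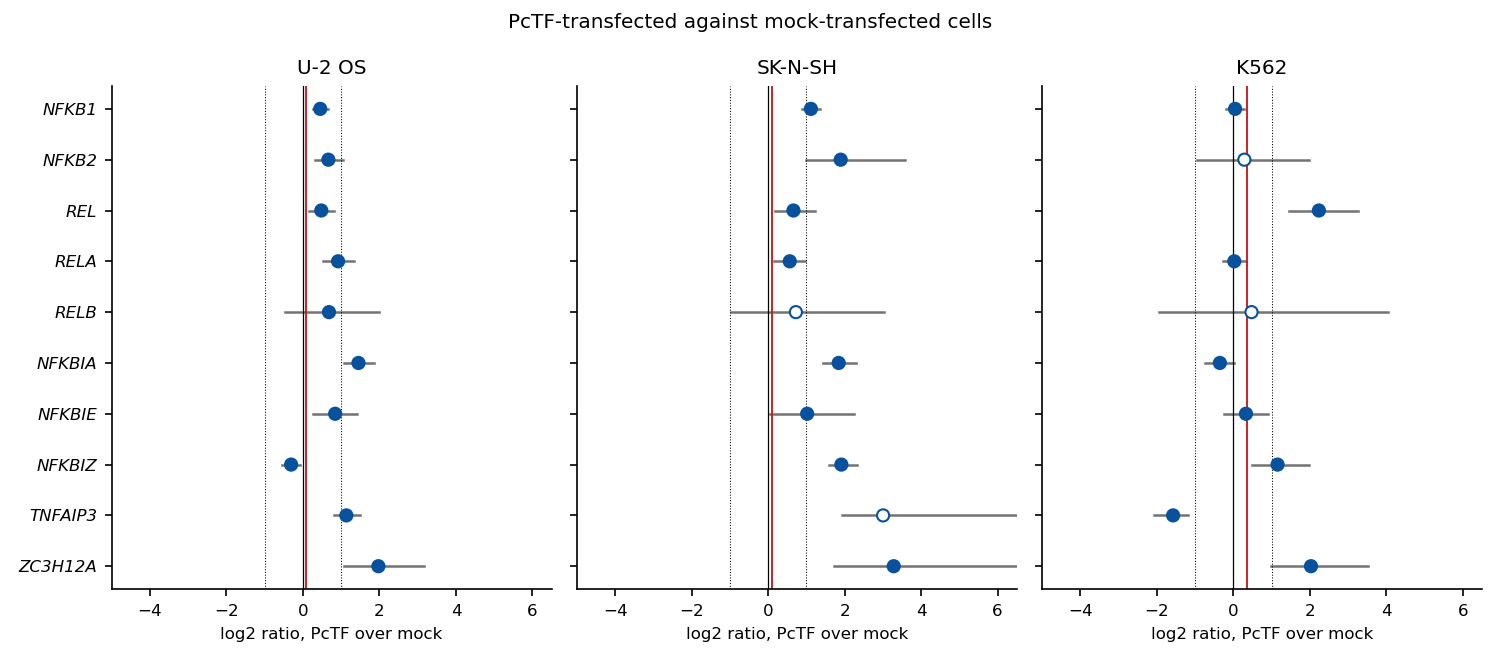
Log2 ratio of PcTF-transfected over mock-transfected cells for the 10 genes in K562, SK-N-SH and U-2 OS (points, 0.1 FPKM added), with the 95% counting interval of the read ratio (grey lines, ended at the axis limit where longer). Open points did not pass the 1 FPKM filter, dotted lines mark 2-fold, and the red line is the median of all genes tested. ZC3H12A lay right of the 2-fold line in all 3 panels, while TNFAIP3 lay right of 0 in SK-N-SH and in U-2 OS and left of the 2-fold line in K562.

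Across the 3 lines ZC3H12A was the only member that was 2-fold higher in each. Its mock level was under 1 FPKM every time, on 7 reads for K562, 1 for SK-N-SH and 11 for U-2 OS. With 1 FPKM added its log2 ratios were 1.23, 1.28 and 1.34 in that order. The share of all genes 2-fold higher in every line was not computed, so this does not set ZC3H12A apart from other genes. NFKB1, NFKB2, REL, RELA, RELB and NFKBIE also lay above the mock level in all 3. For K562, however, the centred values of NFKB1 and RELA were below 0 and that of NFKB2 was 0.00. NFKBIA, NFKBIZ and TNFAIP3 had opposite signs in at least 2 lines. The NFKBIA level per RELA level, a ratio of FPKM, was 2.09 in PcTF-transfected against 1.44 in mock U-2 OS, 2.58 against 1.06 in SK-N-SH, and 0.825 against 1.07 in K562. NFKBIA was the highest of the 10 genes in PcTF-transfected SK-N-SH and U-2 OS, and RELA was the highest in PcTF-transfected K562. The counting interval excluded 0 for 4 members in K562 and for 9 in each of the other lines. In SK-N-SH these include TNFAIP3, which did not pass the filter. The share of all genes with such an interval was not computed, so these counts do not set the members apart from other genes.

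**Figure D4:**
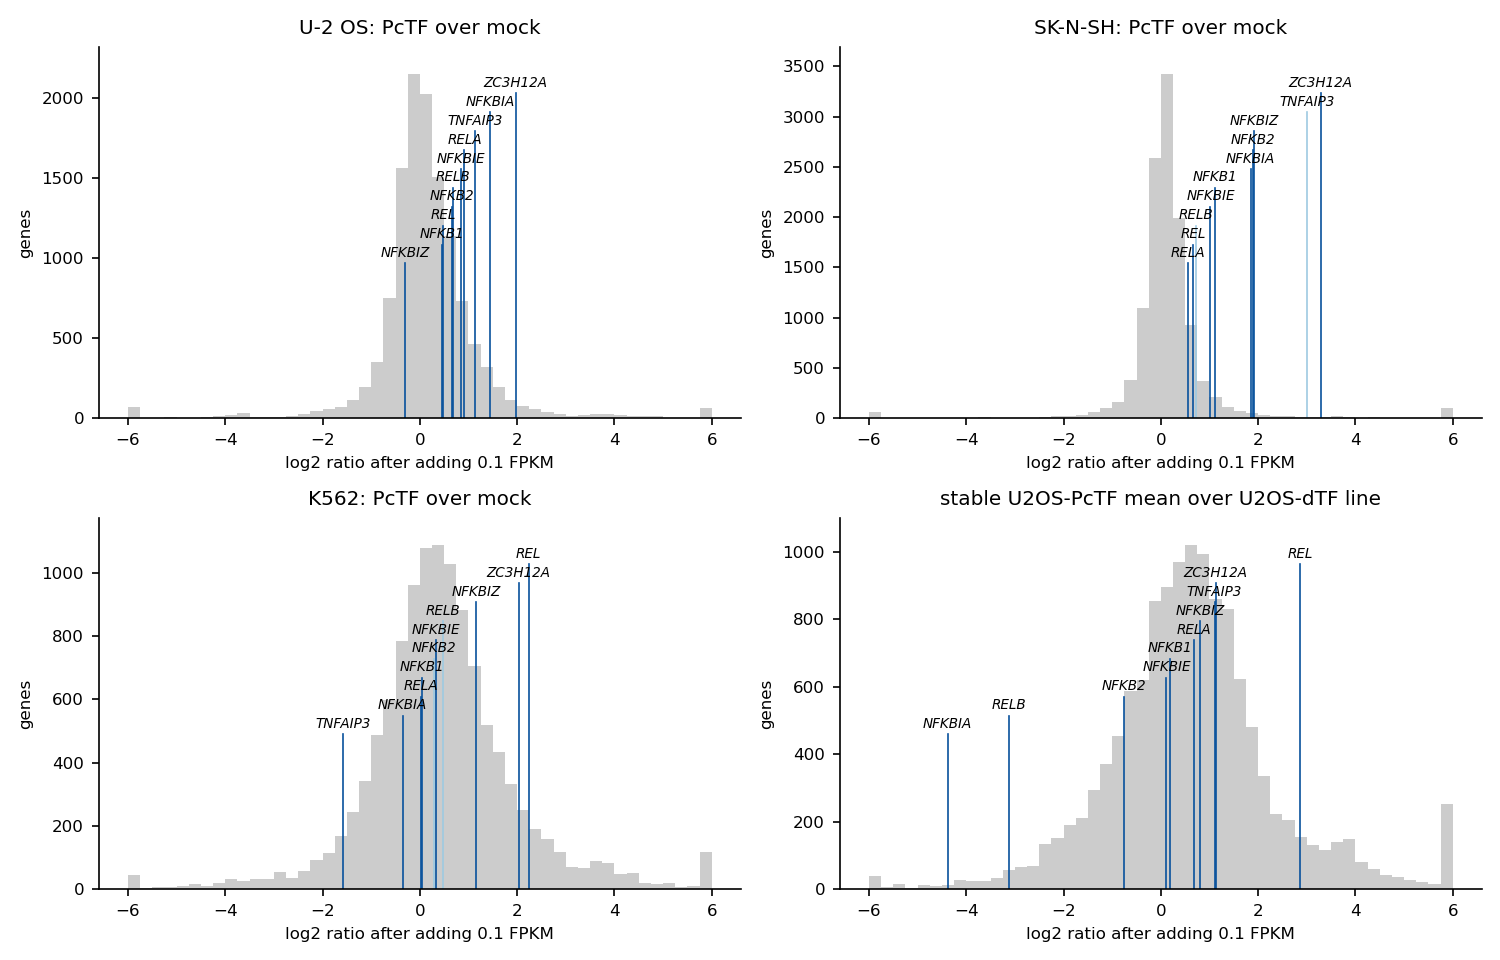
Distribution of log2 ratios over all genes with 1 FPKM or more in the higher column (grey, values beyond 6 placed at the ends), with the 10 genes marked (pale lines did not pass the filter), for the 3 transfected lines and for the stable U2OS-PcTF mean over the U2OS-dTF line. In SK-N-SH and in U-2 OS most members lay to the right of the peak, in K562 they lay on both sides of it, and in the stable comparison NFKBIA and RELB lay far to the left.

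In the stable lines, the mean of the 2 U2OS-PcTF libraries had 3 members that were 2-fold higher than in the U2OS-dTF line (REL, TNFAIP3 and ZC3H12A), against 37.0% of 12920 genes, and 2 that were 2-fold lower (NFKBIA and RELB), against 13.5%. The median log2 ratio was 0.44, beside 0.58 for all genes tested, and the median of genes with 1 FPKM or more in both columns was 0.39. Once centred on the latter, TNFAIP3 (0.71) and ZC3H12A (0.74) were no longer 2-fold higher, NFKB2 (-1.14) came to lie past 2-fold lower, and NFKB1 (-0.20) and NFKBIE (-0.28) came to lie below 0. That leaves 1 member 2-fold higher and 3 lower. Against mock-transfected U-2 OS cells the stable mean had 3 members 2-fold higher (RELA, NFKBIA and ZC3H12A), beside 27.3% of 13030 genes, and 1 lower (NFKBIZ), beside 7.69%. These calls were not centred, and the median of genes with 1 FPKM or more in both was 0.32. A shift by that median would bring ZC3H12A (1.31) under 2-fold, and REL (-0.72) and NFKBIE (-0.96) past 2-fold lower. The shares of all genes after such a shift were not computed. The comparisons with dTF turn on the U2OS-dTF library, which is a single library of a single line.

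NFKBIA in the U2OS-dTF line was the most extreme value of the set. It was listed at 673 FPKM there, the 83rd highest gene of that library, on about 5245 reads. Mock-transfected U-2 OS cells had 12.0 FPKM, PcTF-transfected cells 33.0 FPKM and the stable U2OS-PcTF cells a mean of 32.2 FPKM. No single stable library can have been above 64.4 FPKM, since the mean is over 2. The log2 ratio of stable PcTF over dTF was -4.38 (centred -4.77), and 90 of 12920 genes had a smaller one. Against mock-transfected cells the stable mean lay on the other side, with a log2 ratio of 1.42. The dTF line itself was 56.0-fold above mock-transfected cells, and 116 of 12660 genes had a larger ratio. NFKBIA per RELA was 42.6 in the dTF line and 1.27 in the stable PcTF mean.

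RELB, the subunit of the non-canonical branch that pairs with p52, was also highest in the dTF line, but its stable mean lay below mock (log2 ratio -0.39) where that of NFKBIA lay above. It was at 7.83 FPKM in the dTF line, 1.09 FPKM in mock, 1.80 FPKM in PcTF-transfected cells and 0.806 FPKM in the stable mean, where no single library can have been above 1.61 FPKM. RELB held 15.9% of the subunit sum in the dTF line and 2.09% in mock-transfected U-2 OS. NFKB2, the gene of its partner, was at 7.74 FPKM in the dTF line and 7.21 FPKM in mock, and the stable mean was 4.55 FPKM.

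REL went the other way. It was at 1.01 FPKM in the dTF line, with ZC3H12A (1.03 FPKM) the lowest of the 10 genes there, and at 13.3 FPKM in mock, 18.6 FPKM in PcTF-transfected and 8.02 FPKM in stable PcTF cells. The log2 ratio of stable PcTF over dTF was 2.87, but -0.72 over mock-transfected cells. NFKBIZ was at 3.12 FPKM in the dTF line and 5.54 FPKM in the stable mean, both below the 22.5 FPKM of mock-transfected cells, with a log2 ratio of the stable mean of 0.81 over dTF and -2.004 over mock. TNFAIP3 was at 2.28 FPKM in the dTF line, 5.02 FPKM in the stable mean and 5.28 FPKM in mock.

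RELA and ZC3H12A were higher in the stable PcTF mean than in either control. RELA was at 25.3 FPKM in the stable mean, 15.8 FPKM in the dTF line and 8.32 FPKM in mock (log2 ratio 0.68 over dTF and 1.59 over mock). It was the most abundant subunit transcript in the stable mean, with 43.6% of the sum. ZC3H12A was at 2.36 FPKM in the stable mean, 1.03 FPKM in the dTF line and 0.896 FPKM in mock (1.12 over dTF and 1.31 over mock). The median of genes with 1 FPKM or more in both was 0.32 for the stable mean over mock and 0.39 over dTF. Over dTF, 6076 of 12920 genes had a larger ratio than RELA and 4330 a larger one than ZC3H12A. NFKB1 stayed between 16.9 and 30.3 FPKM in all U-2 OS columns. NFKBIE was at 1.74 FPKM in the dTF line and 1.89 FPKM in the stable mean, both below the 3.79 FPKM of mock.

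Neither the dTF line nor mock-transfected cells held PcTF, and between them 2 members were 2-fold higher in dTF (RELB and NFKBIA) and 4 were 2-fold lower (REL, NFKBIE, NFKBIZ and TNFAIP3), beside the shares of 28.1% and 32.0% over all genes. These are cultures of different handling, 1 a transgenic line under doxycycline and 1 a mock-transfected culture, in tables made separately. What part of the differences belongs to line, doxycycline or dTF cannot be told apart.

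Other genes of the pathway were taken from 4 lists of kinases and adaptors, receptors, other inhibitors and target genes, none of which holds a member. Target genes stood furthest from the background in SK-N-SH and in U-2 OS. Of 38 target genes, 25 passed the filter in U-2 OS, 18 of them 2-fold higher and 1 lower, with a median log2 ratio of 1.96. In SK-N-SH 20 of 26 were 2-fold higher and 0 lower (median 2.07). In K562 2 of 16 were higher and 6 lower (median -0.23). The shares higher are 72%, 76.9% and 12.5% in that order, beside 12.0%, 5.79% and 28.6% of all genes. The shares lower are 4%, 0% and 37.5%, beside 5.59%, 2.69% and 11.7% of all genes. The medians of all genes tested were 0.08, 0.10 and 0.37. The target list was assembled with results of these libraries known, so its direction is no independent evidence.

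The growth factor gene CSF2 had 25.3 FPKM in PcTF-transfected U-2 OS cells and 18.0 FPKM in those of SK-N-SH, and it was listed at 0 in mock cells of both. The chemokine gene IL8 had 34.3 against 0.682 FPKM in U-2 OS and 163 against 1.03 FPKM in SK-N-SH, PcTF over mock. PTGS2, the gene of cyclooxygenase-2, was the target that was lower in U-2 OS (35.4 and 8.48 FPKM). In K562 the lowest ratio was that of BCL2L1, a survival gene, at 106 and 14.8 FPKM, and the highest that of SOD2, the mitochondrial superoxide dismutase, at 22.5 and 63.4 FPKM.

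Of 29 kinases, adaptors and ubiquitin ligases, 6 of 26 that passed the filter were 2-fold higher in U-2 OS, 4 of 25 in SK-N-SH and 5 of 27 in K562, with 0, 0 and 2 lower. These are 23.1%, 16.0% and 18.5%, beside 12.0%, 5.79% and 28.6% of all genes in the same libraries, so that the K562 share lay below the background. The 2 lower in K562 are 7.41%, and over all genes 5.59%, 2.69% and 11.7% were lower in the same libraries. Centring left 3 higher and 4 lower in K562, beside 21.8% and 16.5% of all genes. TRADD, an adaptor of the TNF receptor, had 0.480 FPKM in mock U-2 OS and 4.02 FPKM with PcTF, and IKBKE, an IkB kinase relative, had 1.43 and 5.78 FPKM. In SK-N-SH the ubiquitin ligase gene BIRC3 was at 3.52 and 19.4 FPKM and IRAK2, of the interleukin-1 receptor-associated kinase family, at 0.648 and 5.89 FPKM. In K562 IRAK2 was at 0.654 and 2.23 FPKM, MAP3K14, the kinase of the non-canonical branch, at 0.612 and 1.87 FPKM, and TANK at 24.2 and 5.88 FPKM.

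Of 12 receptors, 4 of 9 were 2-fold higher in U-2 OS, 2 of 6 in SK-N-SH and 1 of 6 in K562. These are 44.4%, 33.3% and 16.7%, beside the same shares of all genes, and the K562 share again lay below the background. None was lower in U-2 OS or SK-N-SH, and 1 was lower in K562 (TLR1). Centring left 1 receptor higher in U-2 OS and 0 in K562, beside 10.9% and 21.8% of all genes. TLR3, a receptor for double-stranded RNA, had 15.2 against 5.63 FPKM in U-2 OS and 3.20 against 1.29 FPKM in SK-N-SH. Of 20 other inhibitors and modulators, 3 of 17 were 2-fold higher and 1 lower in U-2 OS, 1 of 15 higher in SK-N-SH, and 6 of 15 higher and 1 lower in K562 (4 and 2 once centred). The shares higher are 17.6%, 6.67% and 40%, beside 12.0%, 5.79% and 28.6% of all genes. The shares lower are 5.88%, 0% and 6.67%, beside 5.59%, 2.69% and 11.7% of all genes. Once centred, 21.8% of all K562 genes were higher and 16.5% lower. The lower one in U-2 OS was TAX1BP1, an adaptor of TNFAIP3, at 302 and 133 FPKM. TNIP1, which encodes another partner of TNFAIP3, was at 7.63 and 15.5 FPKM in SK-N-SH. In K562 NFKBIB, the IkB-beta gene, was at 0.540 and 5.59 FPKM, and BCL3, an atypical IkB gene, at 1.93 and 0.162 FPKM.

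**Figure D5:**
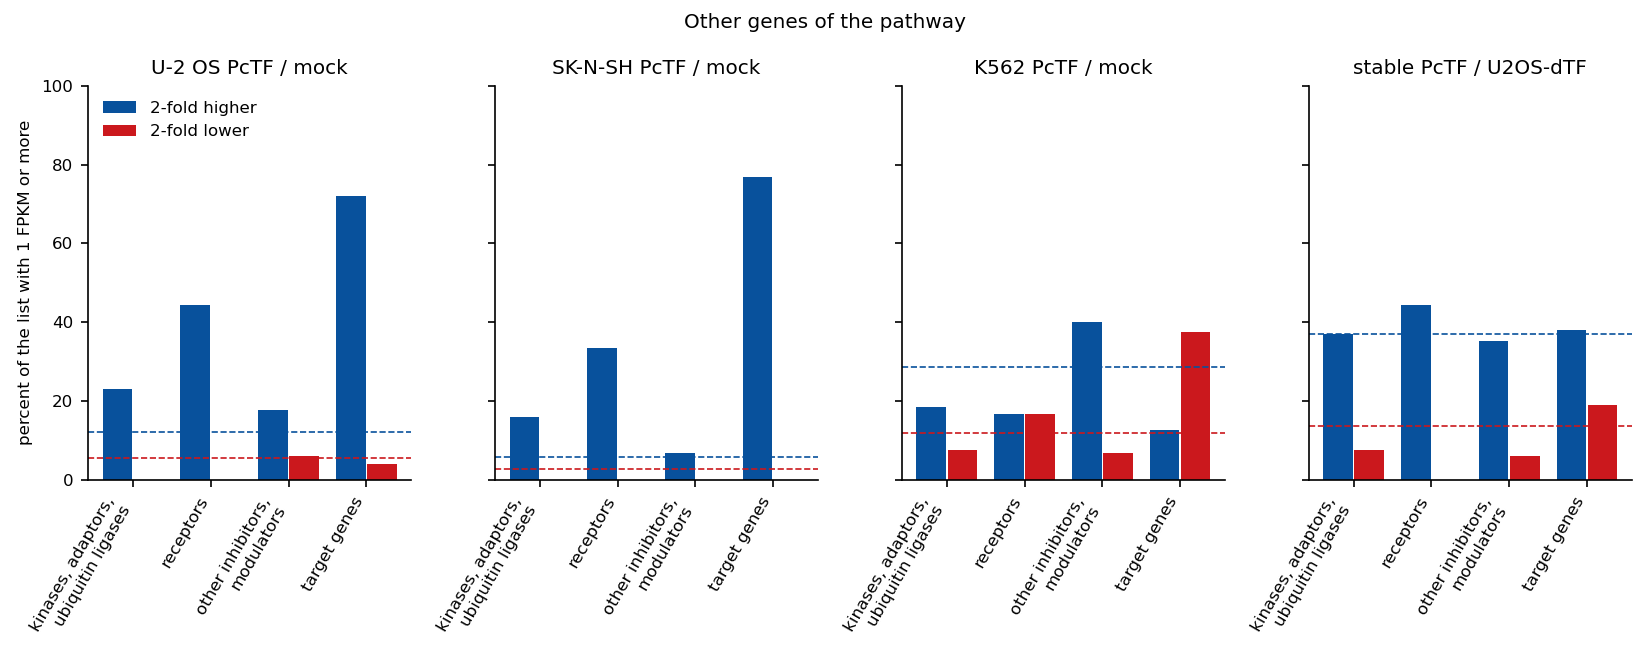
Percent of the genes in each of 4 pathway lists, among those with 1 FPKM or more in the higher column, that were 2-fold higher (blue) or lower (red) in each comparison, with the same percent over all genes tested as dashed lines. Of the target genes 76.9% were higher in SK-N-SH and 72.0% in U-2 OS, while in K562 12.5% were higher and 37.5% lower.

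In the stable comparison the shares of these lists that were 2-fold higher ran from 35.3% to 44.4%. Kinases and adaptors were 2-fold higher in the PcTF mean for 10 of 27 genes, receptors for 4 of 9, other inhibitors for 6 of 17 and target genes for 8 of 21 (38.1%, beside 37.0% of all genes), with 2, 0, 1 and 4 lower. Over all genes 13.5% were lower. Once centred, 7, 4, 3 and 6 were higher and 3, 0, 4 and 8 lower, beside 26.7% and 19.5% of all genes. Against mock-transfected U-2 OS cells, without centring, 12, 4, 6 and 10 were higher and 1, 0, 2 and 4 lower, beside 27.3% and 7.69% of all genes. CCL2, a chemokine gene, was listed at 0 in the dTF line and at 12.6 FPKM in the stable mean, and LIF, a cytokine gene, was at 16.0 and 4.48 FPKM. CCL2 was also 2-fold lower in the dTF line than in mock-transfected cells. In mock-transfected cells LIF was at 0.551 FPKM, below both the dTF line and the stable mean. ICAM1, an adhesion gene, was at 23.1 FPKM in mock and listed at 0 in the dTF line, and TNIP3, which encodes a partner of TNFAIP3, was at 34.2 FPKM in mock and also listed at 0.

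Promoter matches to the consensus were found in 14 of 30 target genes with a RefSeq window (46.7%), 5 of 24 kinases and adaptors (20.8%), 0 of 10 receptors and 1 of 17 other inhibitors. In U-2 OS 2 of the 5 members with a match were 2-fold higher (NFKBIA and TNFAIP3) and 3 were not (NFKB1, REL and NFKBIZ). Of the 3 searched members without a match, ZC3H12A was 2-fold higher there, and NFKB2 and RELA were not. The searched windows of NFKB2 and RELA lay apart from their deposited starts, so a match nearer those starts could have been missed. In SK-N-SH NFKB1, NFKBIA and NFKBIZ had a match and were 2-fold higher, REL had a match and was not, and TNFAIP3 did not pass the filter. NFKB2 and ZC3H12A were 2-fold higher there without a match, and RELA was not higher by 2-fold. In K562 REL and NFKBIZ were 2-fold higher with a match, TNFAIP3 was lower with a match, and NFKB1 and NFKBIA did not pass 2-fold. ZC3H12A was 2-fold higher in K562 without a match, RELA did not pass 2-fold and NFKB2 did not pass the filter.

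Over the 8 columns, NFKB2 and NFKB1 lay closest to the mean pattern of the 10 genes (Pearson r of 0.89 each) and NFKBIA farthest (0.42), each gene being part of that mean. RELB and NFKBIA had an r of 0.87 over the 8 columns and 0.52 over the 7 columns without the U2OS-dTF line. NFKB2 and RELB had an r of 0.81 with that line and 0.96 without it. These columns share cell lines and tables, so the correlations are descriptions and carry no p.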

How the data were processed

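RNA-seq of 9 of the 10 libraries was analysed. The library of U-2 OS cells labelled as transfected with the dTF plasmid was not analysed here. RNA was extracted with TRIzol, amplified with the Ovation kit and sequenced as 50-base single-end reads. Per the paper's methods and the submitters' processing notes, the authors aligned the reads with TopHat 2.1.0 and Bowtie2 to hg19 and computed FPKM with Cuffdiff, and the deposited tables hold these values for 23245 genes each. Their fold change, p-value and q-value columns were not used. White blood cell markers in K562 are not reported here.

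The mean of the 2 stable libraries was derived as 3 times the deposited mean minus the PcTF-transfected library, divided by 2. As a check, 3 times the mean equalled the transfected library within 0.01% for 325 genes, and lay over 1% below it for 10 of 16049. Depth came from the steps between low FPKM of single-exon genes. Of these, 78.3% were whole multiples within 3% in PcTF-transfected K562, and 100% in each other library. The U2OS-dTF depth rests on 10 low values. The smallest depth that fitted the steps was taken, so reads may be undercounted. Reads used the effective length of a GENCODE transcript at each locus (fragments of 200 ± 80 bp) and exact 95% binomial intervals, checked on simulated data. Amplified reads are not independent molecules. For each pathway list the 2 highest genes and the 1 lowest in a comparison could be named, with CBX8, reference genes and the 5 genes most like the members. ICAM1 and TNIP3 fall under this rule in the comparison of the dTF line with mock. Members and lists were chosen with earlier results of these data known. Alternatives changed the added FPKM (1 or 0.01), the filter, the fold (1.5 or 3), centring, and the stable control. Python 3.11.15, pandas 2.3.3, NumPy 2.4.6, SciPy 1.17.1 and matplotlib 3.10.9 were used.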

Additional observations from a re-analysis of the deposited data

Results flagged for a closer look

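TNFAIP3 had 2-fold differences in opposite directions between lines. Its log2 ratio of PcTF over mock was -1.58 in K562 (6.57 and 2.14 FPKM), 1.13 for U-2 OS (5.28 and 11.7 FPKM) and 3.00 for SK-N-SH (listed at 0, and 0.703 FPKM), where the value depends on the 0.1 FPKM added. With 1 library per condition the difference between lines was not tested.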

How the results depend on the processing

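A count was taken as moved past 1.5 times, a median past 0.1 on the log2 scale, and a single gene outside its counting interval. In the stable comparison, which has no counting intervals, a single gene was taken as moved past 0.1 on the log2 scale. By these limits 63 of the member counts and medians stayed and 19 moved, and for single genes and pathway lists 122 stayed, 55 moved and 3 reversed. At 1.5-fold, 7 of 10 members were higher in U-2 OS (23.5% of all genes) and 5 of 10 in the stable PcTF mean over dTF (49.9%). At 3-fold, 1 was higher in each (5.15% and 22.3% of genes), and 0 of 8 were lower in K562 (6.08%). With a filter of 5 FPKM, 3 of 5 members were higher in SK-N-SH (3.97% of genes; median 1.12) and 1 of 5 in K562 (25.1%; median 0.024). Without a filter the K562 median over all 10 members was 0.31. For the members that passed the filter it was 0.19, and -0.097 once centred. With 1 FPKM added the U-2 OS median was 0.66. The SK-N-SH median went to 1.05 with that addition and 5 members were higher (3.31% of genes), while NFKB2 went from 1.90 to 1.04, ZC3H12A from 3.28 to 1.28 and TNFAIP3 from 3.00 to 0.77. In the stable comparison, 1 member was higher with 1 FPKM added (30.4% of genes) and 1 once centred (26.7%). Its median was 0.046 once centred and 0.74 with the deposited mean of 3 libraries. With mock-transfected U-2 OS as control and no centring, the median was -0.29, and 3 members were higher and 1 lower (27.3% and 7.69% of genes). REL (-0.72), NFKBIA (1.42) and TNFAIP3 (-0.070), each past 2-fold over dTF, changed sign and are the 3 counted as reversed. NFKB1 (0.193 over dTF and -0.188 over mock), NFKBIE (0.115 and -0.964) and NFKBIZ (0.808 and -2.004) changed sign too. They had been under 2-fold over dTF and were counted as moved. The cause of these shifts was not tested. No replicate could be left out, since each column is 1 library or a mean. No paired analysis was possible because the columns compared share fewer than 2 replicate numbers. Few reads limit RELB, NFKB2 outside U-2 OS, and ZC3H12A in mock cells.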

Other observations

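Outside the pathway lists, the 5 genes whose pattern over the 8 columns was most like the mean of the members, out of 15356 genes, were C3 (Pearson r 0.965), TRIM21 (0.958), LOC254896 (0.939), KHDC1L (0.939) and MED30 (0.938). C3 encodes the central complement protein and had 57.0 FPKM in PcTF-transfected against 6.14 FPKM in mock U-2 OS. In SK-N-SH it had 4.85 FPKM with PcTF and was listed at 0 in mock, and in K562 it had 1.98 against 2.05 FPKM. TRIM21, an antibody receptor and ubiquitin ligase of the cytosol, had 18.1 against 4.51 FPKM in U-2 OS, 4.17 against 1.12 FPKM in SK-N-SH and 5.00 against 1.73 FPKM in K562. MED30, a subunit of Mediator, had 33.4 against 13.1, 7.33 against 4.01 and 11.2 against 7.51 FPKM in the same order. These are the highest correlations among many genes over few columns, and the columns are not independent.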
